A study of Homo sapiens with 12 samples.

Results

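The genes described here are the G2/M and mitosis genes, a named set of 38 genes whose products carry a cell from the end of DNA replication through chromosome segregation and division. They were chosen by name and by textbook role, and 36 of the 38 were found among the 16299 genes with a value. NUSAP1 and PRC1 are not analysed here. All 36 passed the filter on low values and were tested with 15794 genes in all. The study profiled 12 RNA libraries of the established human pancreatic cancer lines BXPC3 and PANC1. BXPC3 lacks a functional SMAD4 gene and keeps an epithelial character, whereas PANC1 is less differentiated and expresses much vimentin. The 6 groups of 2 libraries were BXPC3 in collagen, BXPC3 in 5% GelMA, BXPC3 in 7.5% GelMA, and PANC1 in the same 3 matrices. GelMA is gelatin carrying methacryloyl groups, which let it be cross-linked into a gel, and collagen served as the reference gel. All groups share the high-glucose medium with serum named in the labels. Whether the replicates came from separate cultures is not given in the sources used here, so the spread behind each p-value is that among these libraries and may be technical.

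Entry into mitosis is driven by the kinase CDK1 bound to cyclin A or cyclin B, after CDC25 phosphatases remove inhibitory phosphates from CDK1. Aurora and Polo-like kinases then build the spindle, the spindle checkpoint delays anaphase until kinetochores are attached, and the anaphase-promoting complex releases the cell by destroying securin and cyclin B. Many of these genes are transcribed together late in the cell cycle, through FOXM1, B-MYB and the DREAM complex acting at a promoter element called the CHR (cell cycle genes homology region), often with CCAAT boxes that bind NF-Y. In tumours the set is widely used as a readout of proliferation.

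The promoters show what the set shares beyond its members' functions. RefSeq promoter windows on GRCh38.p14, from 250 bases before to 50 bases after the start, matched 29 of the 36 genes, and AURKA, BIRC5, BUB3, FOXM1, TPX2, TTK and UBE2C had no entry. The CHR letters TTTGAA were searched on both strands and were present in 19 of the 29 windows (65.5%), against 15.2% of all 35116 windows. The variant TTTAAA was in 12 (41.4%, against 12.2% of all windows). One or the other was in 24 (82.8%, against 24.0%), and one of them together with a CCAAT box in 18 (62.1%, against 9.27%). CCAAT alone was in 21 (72.4%, against 34.6%). The E2F letters TTCCCGC or TTGGCGC were in 5 (17.2%, against 9.23%).

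In 9 genes a CHR or its variant began between 40 and 20 bases before the start, an interval picked after the matches were seen, which was 31.0% of the 29 windows against 2.69% of all windows. These sites are printed for all 9 genes, among them CCNB1, CCNB2, MKI67, KIF4A and KIF11, whose values between gels are given further on. A link between the sites and those values was not tested. Each is given as 30 bases in the direction of the gene with the CHR or variant in capitals, where TTCAAA is TTTGAA on the other strand.
CCNB1 (chr5:69167108-69167137, plus strand): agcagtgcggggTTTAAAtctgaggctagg
CCNB2 (chr15:59105105-59105134, plus strand): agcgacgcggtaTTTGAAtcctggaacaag
PLK1 (chr16:23678848-23678877, plus strand): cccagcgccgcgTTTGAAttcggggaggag
BUB1B (chr15:40161034-40161063, plus strand): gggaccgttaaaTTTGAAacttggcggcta
PTTG1 (chr5:160421814-160421843, plus strand): cgcgagttgtggTTTAAAccaggagtgcgc
KIF4A (chrX:70290058-70290087, plus strand): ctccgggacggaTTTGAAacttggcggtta
KIF11 (chr10:92593090-92593119, plus strand): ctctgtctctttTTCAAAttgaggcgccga
ANLN (chr7:36389824-36389853, plus strand): tcggcgctgaaaTTCAAATTTGAAcggctg
MKI67 (chr10:128126435-128126464, minus strand): tcttcgttttcgTTTGAAttgggcgggcgc

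The RefSeq start is not the only annotated start. GENCODE 29 places the outermost start farther upstream for 7 of the 9 genes, by 1233 bases for PLK1, 140 for CCNB1, 68 for CCNB2, 56 for ANLN, 46 for BUB1B, 33 for PTTG1 and 14 for KIF4A. For all of these except KIF4A the CHR or variant itself begins downstream of that start, so it may lie within a GENCODE transcript rather than before it. For KIF11 and MKI67 no GENCODE start lies upstream of the RefSeq start, and the 150 bases before it are shown for both, with CHR and CCAAT matches of either strand in capitals. In MKI67 the CHR nearest the start overlaps an inverted CCAAT box, so the capitals run together.
KIF11 (chr10:92592980-92593129, plus strand): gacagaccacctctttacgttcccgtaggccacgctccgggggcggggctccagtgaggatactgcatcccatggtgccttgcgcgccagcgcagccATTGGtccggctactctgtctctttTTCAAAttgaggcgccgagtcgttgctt
MKI67 (chr10:128126424-128126573, minus strand): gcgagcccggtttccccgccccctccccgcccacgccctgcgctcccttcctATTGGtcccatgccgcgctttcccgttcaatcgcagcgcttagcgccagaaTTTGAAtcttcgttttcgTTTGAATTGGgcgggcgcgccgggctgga

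**Figure D1:**
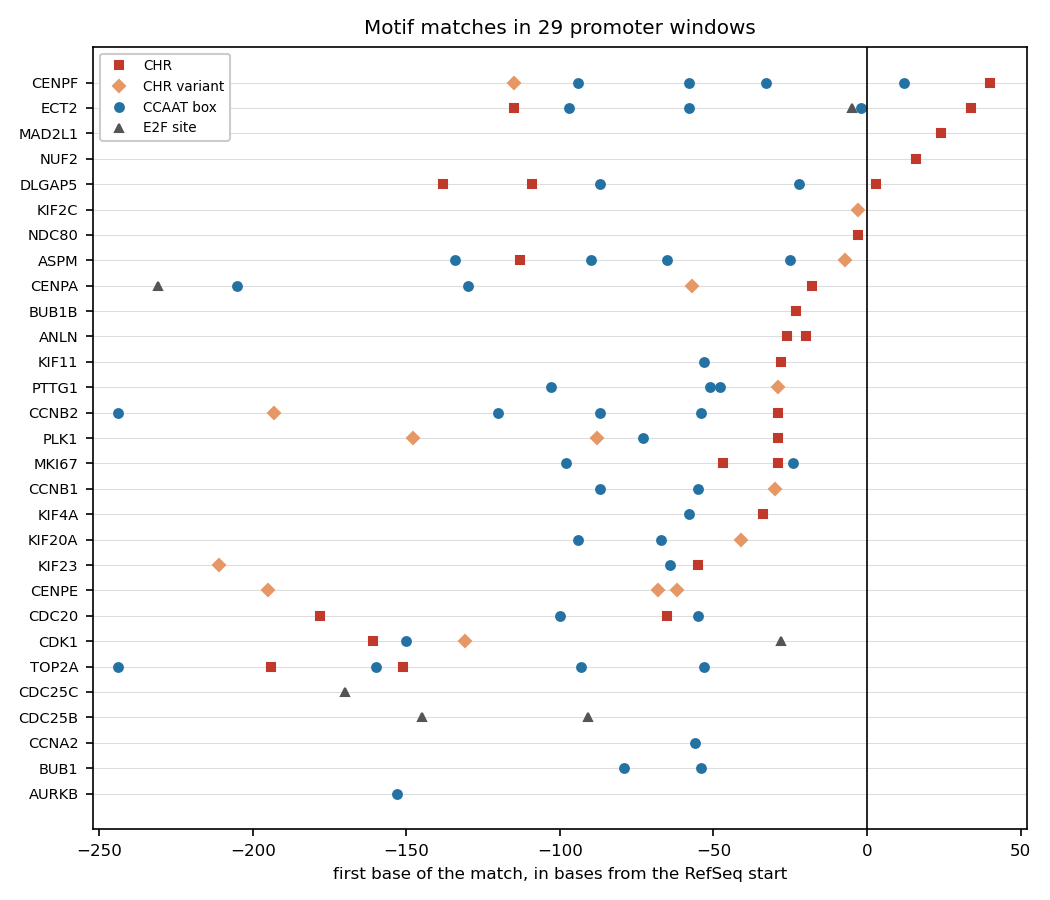
Positions of the CHR (TTTGAA), its variant (TTTAAA), the CCAAT box and the E2F letters in the RefSeq windows of 29 G2/M and mitosis genes, in bases from the start (vertical line), each symbol marking the first base of a match. In 9 genes a CHR or variant begins 40 to 20 bases before the start, and 5 genes have neither within the window.

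Across the whole series, replicates of a group correlated at 0.9921 to 0.9948 over genes, and the SD of their difference was 0.295 to 0.364 log2. The sequencing depth of the libraries is unknown, because only normalized values were used. SMAD4 lay between -5.92 and -5.35 log2 RPKM in BXPC3 and between 3.94 and 4.55 in PANC1. All 7 ductal epithelial markers had values, and KRT8, KRT18 and KRT19 were at 9.64 or higher in every library, while KRT7 was at 10.24 to 10.74 in BXPC3 against 1.80 to 2.75 in PANC1, and EPCAM, CDH1 and MUC1 were also lower in PANC1. Of 5 mesenchymal markers VIM (5.01 to 5.78 in BXPC3 against 11.65 to 11.93), ZEB1 and CDH2 were higher in PANC1, and SNAI2 (7.24 to 7.51 against -0.71 to 0.01) and FN1 were higher in BXPC3. Of markers of other cell types, 3 of 8 for fibroblast and stellate cells, 3 of 6 for immune cells and 3 of 5 for endothelial cells were in the table, and the defining markers PTPRC, CDH5 and PDGFRB are not analysed here.

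The set spanned a wide range of levels, on the per-length scale of log2 RPKM. In BXPC3 the mean over 6 libraries ran from 1.99 ± 0.14 (SD, n = 6) for CDC25C, a phosphatase that activates CDK1, to 7.80 ± 0.12 for MKI67, which encodes the proliferation marker Ki-67. In PANC1 it ran from 3.06 ± 0.08 for CDC25C to 8.10 ± 0.09 for CDC20, an activator of the anaphase-promoting complex. The order at the top of PANC1 was CDC20, TPX2, TOP2A and MKI67, and the libraries of TPX2 (7.91 to 8.07), TOP2A (7.79 to 8.09) and MKI67 (7.73 to 8.07) overlapped. In BXPC3 MKI67 (7.65 to 7.97) lay above CDC20 (7.32 to 7.64) in every library. The kinetochore and centromere genes NDC80, NUF2 and CENPA and the phosphatase gene CDC25C were the lowest in both lines.

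Most genes of the set had higher values in GelMA than in collagen in both lines (31 of 36 in BXPC3 and 28 in PANC1), by little per gene. Of all 15794 genes tested, 8116 in BXPC3 and 7779 in PANC1 did so. In BXPC3, 18 of the 36 genes rose in GelMA (mean of 5% and 7.5%) against collagen and 0 fell in the limma test at an adjusted p under 0.05. Over all genes tested, 19.4% were called higher and 16.7% lower. At an unadjusted p under 0.05 the counts were 20 higher and 0 lower, where 3882 of all 15794 genes tested were higher and 3347 lower. The alternatives that kept all libraries gave 14 to 18 higher and 0 lower. The median log2 fold change of the set was 0.15, against 0.01 for all genes tested, and single genes ranged from -0.11 (CCNB2) to 0.36 (AURKB). Without the second collagen replicate of BXPC3 the count of risen genes was 10, and without its second 5% replicate 1 gene was called lower. Fewer of all genes tested were called in these fits too, so a lower count there is not confined to the set. Without the second collagen replicate, though, the set lost a larger share of its higher calls than all genes did. Because these are bulk libraries, a larger share of cells in G2 or mitosis and more of each transcript per cell cannot be told apart.

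In PANC1, 17 genes rose and 1 fell (CCNB2), where 27.7% of all genes tested were called higher and 27.4% lower. The median was again 0.15, against -0.01 for all genes tested, and the range was wider, from -0.40 (CCNB2) to 0.48 (CENPE). Without the first collagen replicate of PANC1, 9 genes were called higher. Without either 5% replicate of BXPC3 or the first 5% replicate of PANC1, 2 were called lower. Mitochondrially encoded transcripts moved in the same libraries, with 8 of 13 called higher in PANC1 GelMA (median 0.23) against 1 of 13 higher and 1 lower in BXPC3. The summed level of the 3 fibroblast and stellate markers in the table was higher there as well, going from 7.15 to 7.21 log2 RPKM in collagen to 7.80 to 7.83 in 5% and 8.51 to 8.74 in 7.5% GelMA. Of these, COL1A1 (type I collagen) was called higher, by 1.66 ± 0.06 log2 (SE, adjusted p = 2.97e-08), and COL3A1 (type III collagen) lower. The summed endothelial markers went from -2.13 to -1.56 in PANC1 collagen to -1.37 to -0.51 in 5% and 0.15 to 0.51 in 7.5% GelMA. Over the PANC1 libraries KDR ran from -3.59 to 0.35 log2 RPKM, VWF from -4.68 to -3.08 and PECAM1 from -4.94 to -3.35, so all were low. KDR was not tested. PECAM1, which passed the filter only through BXPC3, was called higher (0.83 ± 0.25, adjusted p = 0.0164), and VWF was not called (-0.47). Of the 7 ductal markers, 5 were called higher and 1 lower, with EPCAM higher by 1.00 ± 0.06 (adjusted p = 4.43e-07). The part of any of these in the result was not tested.

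Libraries of the 2 matrices often did not overlap. In BXPC3 all 4 GelMA libraries lay above both collagen libraries for 22 genes and below both for 0, where 26.8% and 25.2% of all genes tested did so. In PANC1 they lay above for 20 genes and below for 1, where 29.9% and 31.7% of all genes tested did so.

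**Figure D2:**
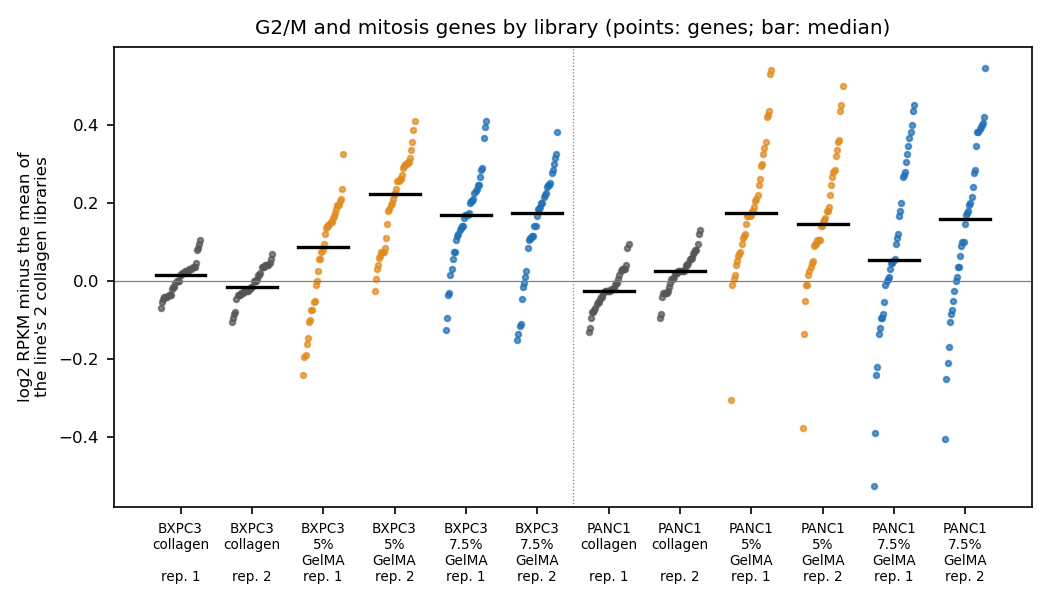
Each of the 36 genes in each of the 12 libraries, as log2 RPKM minus the mean of the same line's 2 collagen libraries, with points ordered by value within a library and a bar at the median. The medians of the GelMA libraries lie between 0.05 and 0.22, and CCNB2 is the lowest point of all 4 PANC1 GelMA libraries.

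**Figure D3:**
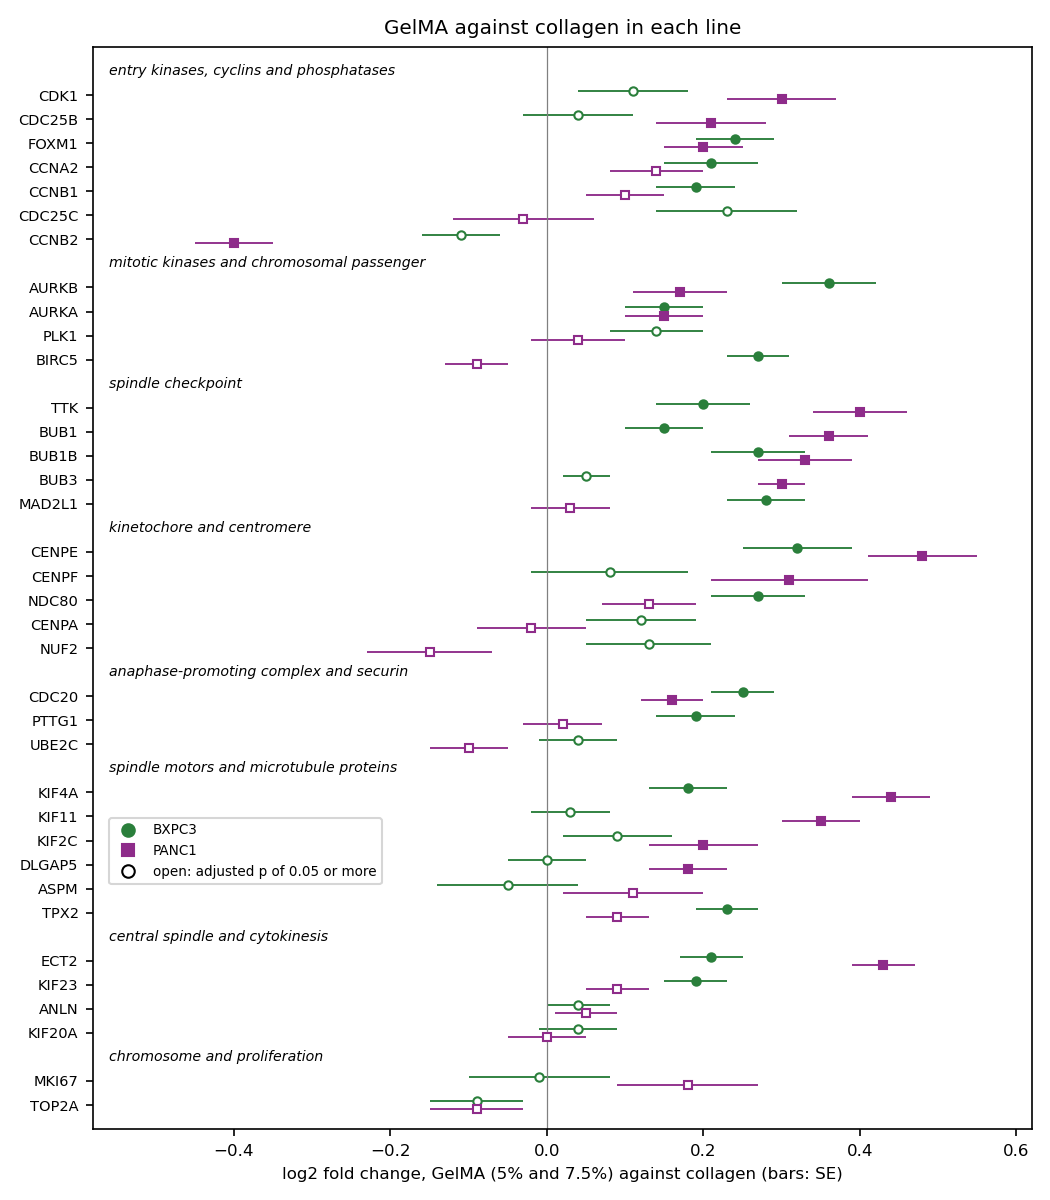
Log2 fold change of GelMA (5% and 7.5% together) against collagen for each gene, by role, in BXPC3 (circles) and PANC1 (squares), with the SE as bars and filled symbols at an adjusted p under 0.05. Most symbols lie right of 0, and CCNB2 in PANC1 stands alone at -0.40.

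The counts by role stand beside 19.4% higher and 16.7% lower of all genes tested in BXPC3, and 27.7% and 27.4% in PANC1. No role was tested against these shares, and each holds few genes. Among the genes of mitotic entry, 3 of 7 rose in BXPC3 (FOXM1, CCNA2, CCNB1), and in PANC1 3 rose (CDK1, CDC25B, FOXM1) and 1 fell (CCNB2). CDK1, the kinase that drives entry, was at 5.49 and 5.57 log2 RPKM in BXPC3 collagen, 5.48 and 5.75 in 5% GelMA, and 5.67 and 5.64 in 7.5% GelMA. It was at 5.87 and 5.81 in PANC1 collagen, 6.10 and 6.12 in 5% GelMA, and 6.12 and 6.23 in 7.5% GelMA. The matrices overlapped in BXPC3, through the first 5% replicate, and were fully separated in PANC1. CDK1 rose in PANC1 by 0.30 ± 0.07 log2 (adjusted p = 0.00309), which is 1.23-fold, while the BXPC3 difference of 0.11 ± 0.07 was not called (adjusted p = 0.244). Without the first 5% replicate the BXPC3 difference was 0.17 and was called.

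The cyclin B genes parted. CCNB1, the main mitotic cyclin, was at 6.37 and 6.31 in BXPC3 collagen, 6.49 and 6.63 in 5% GelMA, and 6.47 and 6.53 in 7.5% GelMA. Libraries of PANC1 were at 7.30 and 7.35 in collagen, 7.40 and 7.35 in 5% GelMA, and 7.42 and 7.52 in 7.5% GelMA. BXPC3 libraries in GelMA were all above those in collagen, while in PANC1 the second 5% replicate equalled the higher collagen replicate to 2 decimals. CCNB1 rose in BXPC3 by 0.19 ± 0.05 log2 (adjusted p = 0.0102), a call lost without the second collagen replicate (0.16, adjusted p = 0.0873). In PANC1 the difference was 0.10 ± 0.05 and was not called (adjusted p = 0.0954).

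CCNB2, which encodes the Golgi-associated cyclin B2 (ENSG00000157456, chromosome 15, 59105078 to 59125045 on GRCh38), went the other way. It was at 5.37 and 5.32 log2 RPKM in PANC1 collagen, 5.04 and 4.97 in 5% GelMA, and 4.82 and 4.94 in 7.5% GelMA, with no overlap between collagen and GelMA. It fell by 0.40 log2 (SE 0.05, adjusted p = 0.000102), which is 1.32-fold lower. In BXPC3 it was at 5.17 and 5.24 in collagen, 5.06 and 5.18 in 5% GelMA, and 5.08 and 5.09 in 7.5% GelMA. These BXPC3 groups overlapped by 1 library, and the difference of -0.11 ± 0.05 was not called (adjusted p = 0.136). The gap between CCNB1 and CCNB2, looked at after their values were seen and not tested, was 1.20 and 1.07 log2 in BXPC3 collagen and 1.40 to 1.46 in BXPC3 GelMA. The PANC1 values were 1.93 and 2.03 in collagen, 2.36 and 2.38 in 5% GelMA, and 2.61 and 2.58 in 7.5% GelMA.

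**Figure D4:**
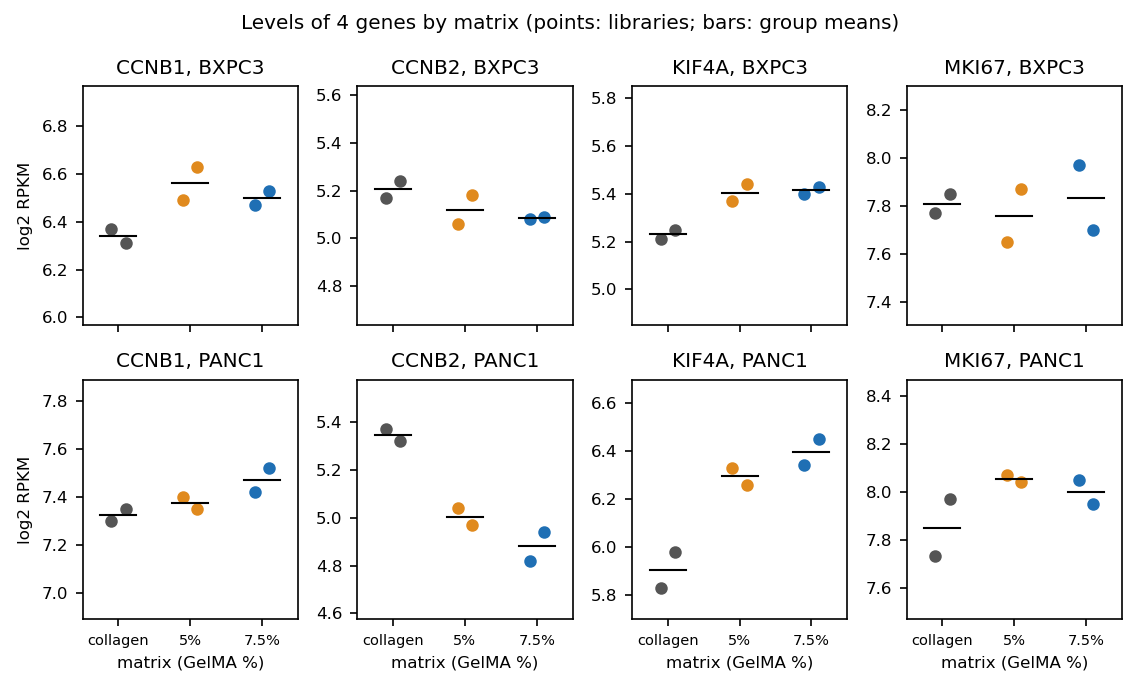
Log2 RPKM of CCNB1, CCNB2, KIF4A and MKI67 in each library (points) by matrix, with group means as bars, for BXPC3 (top) and PANC1 (bottom), on axes that each span 1 log2 unit. In PANC1, CCNB2 steps down from 5.37 and 5.32 in collagen while KIF4A steps up from 5.83 and 5.98, and MKI67 overlaps between matrices in BXPC3.

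FOXM1, the transcription factor that switches on many late cell cycle genes, was at 6.21 and 6.16 in BXPC3 collagen, 6.35 and 6.49 in 5% GelMA, and 6.42 and 6.43 in 7.5% GelMA. In PANC1 it was at 5.90 and 5.95 in collagen, 6.22 and 6.19 in 5% GelMA, and 5.97 and 6.10 in 7.5% GelMA. It rose by 0.24 ± 0.05 log2 in BXPC3 (adjusted p = 0.00363) and by 0.20 ± 0.05 in PANC1 (adjusted p = 0.00562), with no overlap of collagen and GelMA in either line. The PANC1 call was lost without the first collagen replicate (0.17, adjusted p = 0.0511). FOXM1 overlaps ITFG2 and RHNO1 on the opposite strand, and since the strand setting of the counting is not known, reads could be shared among them. The same limit holds for CCNA2 (EXOSC9), ANLN (KIAA0895), CDC25C (FAM53C) and KIF20A (BRD8 and CDC23). On the same strand, CENPA overlaps SLC35F6 and BUB1B overlaps BUB1B-PAK6. CCNA2 (cyclin A2) rose in BXPC3 by 0.21 ± 0.06 (adjusted p = 0.0302) and was not called in PANC1 (0.14 ± 0.06, adjusted p = 0.0874). The BXPC3 call was lost when any of 5 BXPC3 libraries was left out (adjusted p up to 0.175, without the first collagen replicate).

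The CDC25 phosphatases differed from each other. CDC25B was at 7.11 and 7.25 in BXPC3 collagen, 6.94 and 7.22 in 5% GelMA, and 7.38 and 7.32 in 7.5% GelMA. Its PANC1 libraries were at 7.45 and 7.39 in collagen, 7.76 and 7.74 in 5% GelMA, and 7.53 and 7.52 in 7.5% GelMA. The highest PANC1 group was thus 5% GelMA, whereas in BXPC3 the 5% libraries lay within or below the collagen range. CDC25B rose in PANC1 by 0.21 ± 0.07 (adjusted p = 0.0228), lost without the second collagen replicate (0.18, adjusted p = 0.135), without the first, or without the first 5% replicate. CDC25C was the lowest gene of the set and was called in neither line (0.23 ± 0.09 in BXPC3, adjusted p = 0.0849, and -0.03 ± 0.09 in PANC1, adjusted p = 0.804).

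Of the 4 genes of the mitotic kinases and the chromosomal passenger complex, 3 rose in BXPC3 and 2 in PANC1. AURKB, the Aurora kinase of the passenger complex, was at 5.24 and 5.08 in BXPC3 collagen, 5.37 and 5.57 in 5% GelMA, and 5.57 and 5.54 in 7.5% GelMA. Libraries of PANC1 were at 5.66 and 5.75 in collagen, 5.91 and 5.81 in 5% GelMA, and 5.87 and 5.92 in 7.5% GelMA. Collagen and GelMA did not overlap in either line. AURKB rose by 0.36 ± 0.06 log2 in BXPC3 (adjusted p = 0.00209), or 1.28-fold, the highest value of the set in that line. In PANC1 it rose by 0.17 ± 0.06 (adjusted p = 0.0401), a call lost when any of 7 libraries was left out (adjusted p up to 0.242, without the first collagen replicate).

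AURKA, the Aurora kinase of the spindle poles, was at 5.54 and 5.45 in BXPC3 collagen, 5.63 and 5.69 in 5% GelMA, and 5.57 and 5.68 in 7.5% GelMA. The PANC1 values were at 6.03 and 6.09 in collagen, 6.24 and 6.24 in 5% GelMA, and 6.11 and 6.26 in 7.5% GelMA. The GelMA libraries were all above collagen in both lines, though the lowest of them lay close to the collagen range. The rise was 0.15 ± 0.05 in each line (adjusted p = 0.0433 in BXPC3 and 0.0296 in PANC1), and was among the smallest that were called. The BXPC3 call was lost when any of 6 of the 12 libraries was left out (adjusted p up to 0.275, without the second BXPC3 collagen replicate), and the PANC1 call when any of 5 was (up to 0.174, without the first PANC1 collagen replicate).

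PLK1, the Polo-like kinase of mitotic entry and exit, was at 5.73 and 5.73 in BXPC3 collagen, 5.72 and 5.93 in 5% GelMA, and 5.96 and 5.87 in 7.5% GelMA. Its PANC1 libraries were at 6.35 and 6.40 in collagen, 6.54 and 6.41 in 5% GelMA, and 6.38 and 6.35 in 7.5% GelMA. In PANC1 the 7.5% libraries lay inside the collagen range. PLK1 was called in neither line (0.14 ± 0.06 in BXPC3, adjusted p = 0.0818, and 0.04 ± 0.06 in PANC1, adjusted p = 0.536), although without the first 5% replicate the BXPC3 difference was 0.19 and was called. It overlaps ERN2 on the opposite strand.

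BIRC5 encodes survivin, the passenger subunit that is also an inhibitor of apoptosis. It was at 5.21 and 5.16 in BXPC3 collagen, 5.39 and 5.48 in 5% GelMA, and 5.47 and 5.47 in 7.5% GelMA. In PANC1 it was at 6.83 and 6.88 in collagen, 6.86 and 6.72 in 5% GelMA, and 6.72 and 6.75 in 7.5% GelMA. BXPC3 GelMA libraries were all above collagen, and 3 of the 4 PANC1 GelMA libraries were below. BIRC5 rose in BXPC3 by 0.27 ± 0.04 (adjusted p = 0.00124) and was not called in PANC1 (-0.09 ± 0.04, adjusted p = 0.111).

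The spindle checkpoint was the role with the highest share of risen genes, 4 of 5 in each line, although not the same 4. This share rests on 5 genes and stands beside 19.4% of all genes tested in BXPC3 and 27.7% in PANC1. With BXPC3 fitted alone, its calls of BUB1 and TTK were lost. BUB1, the kinase that recruits checkpoint proteins to kinetochores, was at 4.59 and 4.54 in BXPC3 collagen, 4.66 and 4.75 in 5% GelMA, and 4.70 and 4.75 in 7.5% GelMA. Libraries of PANC1 were at 6.11 and 6.15 in collagen, 6.55 and 6.49 in 5% GelMA, and 6.40 and 6.51 in 7.5% GelMA. Collagen was lowest in both lines without overlap. BUB1 rose by 0.15 ± 0.05 in BXPC3 (adjusted p = 0.0242) and by 0.36 ± 0.05 in PANC1 (adjusted p = 0.000102). The BXPC3 call was lost without any of 3 BXPC3 libraries (adjusted p up to 0.153, without the second collagen replicate).

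TTK, the kinase also called MPS1 that starts checkpoint signalling, was at 4.77 and 4.82 in PANC1 collagen, 5.23 and 5.23 in 5% GelMA, and 5.10 and 5.20 in 7.5% GelMA. In BXPC3 it was at 4.10 and 4.18 in collagen, 4.29 and 4.40 in 5% GelMA, and 4.26 and 4.39 in 7.5% GelMA. No GelMA library reached down to the collagen range in either line. TTK rose by 0.40 ± 0.06 in PANC1 (adjusted p = 0.000237) and by 0.20 ± 0.06 in BXPC3 (adjusted p = 0.0242), the latter lost without any of 3 BXPC3 libraries (adjusted p up to 0.15, without the first collagen replicate). BUB1B, the checkpoint protein BUBR1 that holds CDC20 inactive, rose by 0.27 ± 0.06 in BXPC3 (adjusted p = 0.00604) and by 0.33 ± 0.06 in PANC1 (adjusted p = 0.000958). Its BXPC3 call was lost without the first collagen replicate (0.21, adjusted p = 0.0559).

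MAD2L1 and BUB3 divided the lines. MAD2L1, which encodes the MAD2 subunit of the checkpoint complex, was at 4.51 and 4.58 in BXPC3 collagen, 4.74 and 4.80 in 5% GelMA, and 4.91 and 4.87 in 7.5% GelMA. Its PANC1 libraries were at 5.33 and 5.44 in collagen, 5.45 and 5.49 in 5% GelMA, and 5.30 and 5.42 in 7.5% GelMA. Matrices were separate in BXPC3 and overlapped in PANC1. It rose in BXPC3 by 0.28 ± 0.05 (adjusted p = 0.00233) and was not called in PANC1 (0.03 ± 0.05, adjusted p = 0.641).

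BUB3, the partner of BUB1 and BUBR1, was the reverse. It was at 7.21 and 7.18 in PANC1 collagen, 7.44 and 7.44 in 5% GelMA, and 7.56 and 7.54 in 7.5% GelMA. In BXPC3 all 6 libraries were between 6.95 and 7.03. The PANC1 groups formed 3 separate steps, while the BXPC3 libraries lay close together. BUB3 rose in PANC1 by 0.30 ± 0.03 (adjusted p = 7.8e-06) and was not called in BXPC3 (0.05 ± 0.03, adjusted p = 0.143).

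At the kinetochore and centromere 2 of 5 genes rose in each line. CENPE, a kinesin that carries chromosomes to the metaphase plate (ENSG00000138778, chromosome 4, 103105806 to 103198409 on GRCh38), was at 4.66 and 4.80 in PANC1 collagen, 5.27 and 5.23 in 5% GelMA, and 5.18 and 5.15 in 7.5% GelMA. In BXPC3 it was at 4.21 and 4.04 in collagen, 4.36 and 4.51 in 5% GelMA, and 4.52 and 4.40 in 7.5% GelMA. Both lines had collagen lowest without overlap. CENPE rose by 0.48 ± 0.07 in PANC1 (adjusted p = 0.000214), or 1.39-fold, the highest value of the set in that line. In BXPC3 it rose by 0.32 ± 0.07 (adjusted p = 0.005), lost without the second collagen replicate (0.24, adjusted p = 0.062).

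NDC80 and NUF2 encode partners in the complex that binds microtubules to kinetochores. NDC80 was at 3.93 and 3.72 in BXPC3 collagen, 4.15 and 4.18 in 5% GelMA, and 4.07 and 3.99 in 7.5% GelMA. It was at 4.64 and 4.63 in PANC1 collagen, 4.80 and 4.79 in 5% GelMA, and 4.69 and 4.78 in 7.5% GelMA. GelMA libraries were above collagen in both lines, with the BXPC3 collagen replicates themselves 0.21 apart. NDC80 rose in BXPC3 by 0.27 ± 0.06 (adjusted p = 0.00772), lost without the second collagen replicate (0.16, adjusted p = 0.0822), and was not called in PANC1 (0.13 ± 0.06, adjusted p = 0.103). NUF2 was called in neither line (0.13 ± 0.08 in BXPC3, adjusted p = 0.24, and -0.15 ± 0.08 in PANC1, adjusted p = 0.135).

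CENPF, a large protein of the outer kinetochore, rose in PANC1 by 0.31 ± 0.10 (adjusted p = 0.0231), lost without the first collagen replicate (0.21, adjusted p = 0.196) or without the first replicate of 5% or 7.5% GelMA. In BXPC3 its replicates differed by up to 0.31, and its difference of 0.08 ± 0.10 was not called (adjusted p = 0.546). CENPA, the histone variant that marks centromeres, was called in neither line (0.12 ± 0.07 in BXPC3 and -0.02 ± 0.07 in PANC1).

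Of the 3 genes of the anaphase-promoting complex pathway, 2 rose in BXPC3 and 1 in PANC1. CDC20 was at 7.36 and 7.32 in BXPC3 collagen, 7.46 and 7.64 in 5% GelMA, and 7.63 and 7.64 in 7.5% GelMA. Libraries of PANC1 were at 7.97 and 8.01 in collagen, 8.18 and 8.14 in 5% GelMA, and 8.11 and 8.16 in 7.5% GelMA. All GelMA libraries were above collagen. CDC20 rose by 0.25 ± 0.04 in BXPC3 (adjusted p = 0.00187) and by 0.16 ± 0.04 in PANC1 (adjusted p = 0.0108), the latter lost without the first collagen replicate (0.14, adjusted p = 0.0765).

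PTTG1, which encodes securin, rose in BXPC3 by 0.19 ± 0.05 (adjusted p = 0.0138), lost without either collagen replicate (adjusted p = 0.0618 and 0.0663), and was not called in PANC1 (0.02 ± 0.05, adjusted p = 0.693). UBE2C, the ubiquitin-conjugating enzyme of the complex, was called in neither line (0.04 ± 0.05 in BXPC3, adjusted p = 0.563, and -0.10 ± 0.05 in PANC1, adjusted p = 0.109).

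Among spindle motors and microtubule proteins 2 of 6 rose in BXPC3 (TPX2, KIF4A) and 4 of 6 in PANC1 (KIF4A, KIF11, KIF2C, DLGAP5). KIF4A, a chromosome-bound kinesin that also shapes the central spindle, was at 5.83 and 5.98 in PANC1 collagen, 6.33 and 6.26 in 5% GelMA, and 6.34 and 6.45 in 7.5% GelMA. In BXPC3 it was at 5.21 and 5.25 in collagen, 5.37 and 5.44 in 5% GelMA, and 5.40 and 5.43 in 7.5% GelMA. Collagen was lowest in both lines without overlap. KIF4A rose by 0.44 ± 0.05 in PANC1 (adjusted p = 4.97e-05), or 1.36-fold, and by 0.18 ± 0.05 in BXPC3 (adjusted p = 0.0197), where the call was lost without any of 4 BXPC3 libraries (adjusted p up to 0.105, without the first collagen replicate). KIF4A overlaps PDZD11 on the opposite strand.

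KIF11, the kinesin that pushes spindle poles apart, was at 5.77 and 5.82 in PANC1 collagen, 6.15 and 6.13 in 5% GelMA, and 6.12 and 6.19 in 7.5% GelMA, with collagen clearly lower. In BXPC3 its 6 libraries lay between 4.86 and 5.04 with the matrices mixed. It rose in PANC1 by 0.35 ± 0.05 (adjusted p = 0.00022) and was not called in BXPC3 (0.03 ± 0.05, adjusted p = 0.702). TPX2, which activates AURKA on the spindle, rose in BXPC3 by 0.23 ± 0.04 (adjusted p = 0.00134) and was not called in PANC1 (0.09 ± 0.04, adjusted p = 0.0733).

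KIF2C, a microtubule-depolymerizing kinesin, rose in PANC1 by 0.20 ± 0.07 (adjusted p = 0.0239), lost without any of 3 PANC1 libraries (adjusted p up to 0.178, without the first collagen replicate). DLGAP5, a spindle microtubule protein also called HURP, rose there by 0.18 ± 0.05 (adjusted p = 0.00799), lost without the first collagen replicate (0.14, adjusted p = 0.0825). ASPM, a spindle pole protein, was called in neither line (-0.05 ± 0.09 in BXPC3 and 0.11 ± 0.09 in PANC1).

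Among the genes of the central spindle and cytokinesis, ECT2 rose in both lines and KIF23 in BXPC3. ECT2, the exchange factor that activates RhoA at the division site, was at 6.06 and 6.08 in PANC1 collagen, 6.60 and 6.52 in 5% GelMA, and 6.45 and 6.45 in 7.5% GelMA. In BXPC3 it was at 5.87 and 5.83 in collagen, 6.01 and 6.12 in 5% GelMA, and 6.02 and 6.07 in 7.5% GelMA. Collagen was lowest without overlap in both lines, and 5% GelMA was the highest group in PANC1. ECT2 rose by 0.43 ± 0.04 in PANC1 (adjusted p = 1.26e-05) and by 0.21 ± 0.04 in BXPC3 (adjusted p = 0.00332). KIF23, a kinesin of the midzone, rose in BXPC3 by 0.19 ± 0.04 (adjusted p = 0.00276) and was not called in PANC1 (0.09 ± 0.04, adjusted p = 0.0633). ANLN, the scaffold anillin, and KIF20A, a midzone kinesin, were called in neither line, with differences of 0.05 or less in size.

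The proliferation markers MKI67 and TOP2A were called in neither line. MKI67 was at 7.77 and 7.85 in BXPC3 collagen, 7.65 and 7.87 in 5% GelMA, and 7.97 and 7.70 in 7.5% GelMA. Its PANC1 libraries were at 7.73 and 7.97 in collagen, 8.07 and 8.04 in 5% GelMA, and 8.05 and 7.95 in 7.5% GelMA. Replicates differed by up to 0.27, and the matrices overlapped in both lines. The MKI67 difference was small beside its error (-0.01 ± 0.09 in BXPC3, 95% interval -0.21 to 0.19, adjusted p = 0.937, and 0.18 ± 0.09 in PANC1, interval -0.02 to 0.37, adjusted p = 0.119). Without the second collagen replicate of PANC1 its difference there was 0.30 and was called. TOP2A, the topoisomerase that untangles sister DNA, differed by -0.09 ± 0.06 in each line.

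Both lines called 10 genes higher in GelMA, namely AURKA, AURKB, BUB1, BUB1B, CDC20, CENPE, ECT2, FOXM1, KIF4A and TTK. These were 55.6% of the genes called in BXPC3 and 58.8% of those called in PANC1. Over all genes tested, 1425 genes were called higher in both, which is 46.4% of those in BXPC3 and 32.6% of those in PANC1. Of the whole set, 50.0% was called higher in BXPC3 and 47.2% in PANC1, against 19.4% and 27.7% of all genes. The larger call shares of the set raise its overlap by themselves, so the overlaps are not like for like. The lines share no library, but both entered 1 fit with 1 estimate of spread per gene, so their calls are not independent. With each line fitted alone, 9 genes of the set were called higher in both lines. Of the 10 genes, 7 were among them, and AURKA, BUB1 and TTK were not. Between settings and left-out libraries, 5 to 14 genes of the set were called higher in both lines, with the lowest count without the second 7.5% replicate of BXPC3. Of the 10 genes, 7 had a promoter window and 5 of these held a CHR or variant, as did 19 of the other 22 windows. The 10 genes called in neither line were ANLN, ASPM, CDC25C, CENPA, KIF20A, MKI67, NUF2, PLK1, TOP2A and UBE2C.

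The difference between the lines was tested as the PANC1 effect minus the BXPC3 effect. It was higher for 5 genes and lower for 3, where 18.5% of all genes tested were called higher and 20.6% lower. The effect was larger in PANC1 for KIF11 (0.32 ± 0.07, adjusted p = 0.00541), KIF4A (0.26 ± 0.07, adjusted p = 0.0161), BUB3 (0.25 ± 0.04, adjusted p = 0.000567), ECT2 (0.23 ± 0.06, adjusted p = 0.0112) and BUB1 (0.20 ± 0.06, adjusted p = 0.0307). It was lower in PANC1 for BIRC5 (-0.36 ± 0.06, adjusted p = 0.00137), CCNB2 (-0.30 ± 0.07, adjusted p = 0.00936) and MAD2L1 (-0.25 ± 0.07, adjusted p = 0.021). The call was lost for BUB1 without any of 7 libraries (adjusted p up to 0.0972, without the first BXPC3 collagen replicate), and for KIF4A and MAD2L1 without any of 2 each (up to 0.0701 and 0.0911). The count of higher calls was 10 without the second 5% replicate of BXPC3 and 3 without the first collagen replicate of PANC1. Lower calls numbered 9 without the first 5% replicate of BXPC3 and 5 without the second 7.5% replicate of PANC1.

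The separate gels were each compared with the same 2 collagen libraries of their line, so the values are given side by side only. In BXPC3, 14 genes rose in 5% GelMA and 15 in 7.5% GelMA and 0 fell in either, where 16.1% of all genes tested were called higher and 13.7% lower in each. At an unadjusted p under 0.05 there were 19 higher and 0 lower in both. Of all 15794 genes tested, 3488 were then higher and 3038 lower in 5%, and 3495 higher and 2965 lower in 7.5% GelMA. Without the second 5% replicate of BXPC3 the first count was 5, without the second 7.5% replicate the other was 6, and without the second collagen replicate both were 7. In PANC1, 16 rose and 1 fell in 5% GelMA, where 23.0% were called higher and 23.2% lower. In PANC1 7.5% GelMA, 14 rose and 4 fell (CCNB2, NUF2, UBE2C, TOP2A), where 27.2% were called higher and 26.6% lower. KIF23 (adjusted p = 0.0404) and TPX2 (0.03) rose in PANC1 5% GelMA and CCNB1 (0.0419) in 7.5% GelMA by this test. None of them was called in PANC1 over both gels, or in the test of the difference between the lines. Higher calls of PANC1 were 9 in 5% GelMA without its first replicate and 10 without the first collagen replicate. In 7.5% GelMA they were 9 without either its second replicate or the first collagen replicate. The 4 lower calls became 2 without the second collagen replicate or the first 7.5% replicate.

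The step from 5% to 7.5% GelMA was small. In BXPC3 limma called 0 genes higher and 0 lower, as it did for nearly all genes (0.0443% higher and 0.038% lower). At an unadjusted p under 0.05 there was 1 gene in each direction, CDC25B (0.27 ± 0.08, adjusted p = 0.291) and KIF20A (-0.20 ± 0.06, adjusted p = 0.289). Of all 15794 genes tested, 757 were then higher and 736 lower. The alternatives that kept all libraries called 0 genes of the set. Without the second 5% replicate of BXPC3, 1 gene was called higher. In PANC1 1 gene rose and 2 fell, where 9.16% of all genes tested were called higher and 9.56% lower. The set's median was -0.06, with 26 of 36 genes below 0, as were 7500 of all 15794 genes tested. Both 7.5% libraries lay below both 5% libraries for 19 genes and above for 6, where 30.8% and 35.4% of all genes tested did so.

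TOP2A was at 8.07 and 8.08 in PANC1 5% GelMA and at 7.79 and 7.82 in 7.5% GelMA, with collagen at 7.97 and 8.09. UBE2C was at 7.82 and 7.74 in 5%, 7.53 and 7.50 in 7.5%, and 7.78 and 7.72 in collagen. For both genes the 7.5% libraries stood below all other PANC1 libraries. TOP2A fell from 5% to 7.5% by 0.27 log2 (SE 0.07, adjusted p = 0.0209) and UBE2C by 0.26 (SE 0.06, adjusted p = 0.0114). BUB3 rose by 0.11 ± 0.03 (adjusted p = 0.0359). None of the 3 calls was kept in every fit without 1 library, with adjusted p up to 0.102 for TOP2A, 0.0875 for UBE2C and 0.166 for BUB3. The higher call was lost without any single library of 5% or 7.5% PANC1 GelMA or of 7.5% BXPC3 GelMA. Lower calls numbered 0 without the first 5% replicate of PANC1, 1 without its second 5% or either 7.5% replicate, and 5 without either 5% replicate of BXPC3.

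The concentration step differed between lines for 2 genes, both lower in PANC1, where 4.01% of all genes tested were called higher and 4.96% lower. CDC25B differed by -0.49 ± 0.11 (adjusted p = 0.024), from steps of -0.22 ± 0.08 in PANC1 and 0.27 ± 0.08 in BXPC3, neither of them called. UBE2C differed by -0.37 ± 0.08 (adjusted p = 0.0213). The BXPC3 step of UBE2C was 0.11 ± 0.06 and was not called. Both calls were lost without either 7.5% replicate of BXPC3, the first 5% replicate of PANC1 or either of its 7.5% replicates, and that of CDC25B also without the second 5% replicate of PANC1, with adjusted p up to 0.0906 for CDC25B (without the first 7.5% replicate of BXPC3) and up to 0.0842 for UBE2C (without the first 5% replicate of PANC1).

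The lines differed more than the gels. Over all matrices 32 of 36 genes were higher in PANC1 than in BXPC3 and 1 was lower, where 50.0% of all genes tested were called higher and 41.9% lower. The set's median difference was 0.69 log2, against 0.12 for all genes tested. All 6 PANC1 libraries lay above all 6 BXPC3 libraries for 29 genes and below for 0, where 39.1% and 32.7% of all genes tested did so. All 4 genes of the passenger complex and mitotic kinases, all 5 checkpoint genes and all 5 kinetochore genes were called higher.

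BUB1 had the largest difference. Its 6 BXPC3 libraries ran from 4.54 to 4.75 and its 6 PANC1 libraries from 6.11 to 6.55, far apart, and it was higher in PANC1 by 1.70 ± 0.03 log2 (adjusted p = 1.69e-12), or 3.25-fold. CENPF was at 5.96 and 5.77 in BXPC3 collagen, 5.79 and 6.10 in 5% GelMA, and 6.09 and 5.82 in 7.5% GelMA, against 7.20 and 7.39, 7.62 and 7.58, and 7.64 and 7.58 in the same PANC1 groups. It was higher in PANC1 by 1.58 ± 0.07 (adjusted p = 1.4e-09). BIRC5, at 5.16 to 5.48 and 6.72 to 6.88, was higher by 1.43 ± 0.03 (adjusted p = 4.7e-12). For each of these the gap between the lines exceeded the range within either line. ANLN was at 6.39 and 6.33 in BXPC3 collagen, 6.36 and 6.47 in 5% GelMA, and 6.39 and 6.37 in 7.5% GelMA. The PANC1 values were at 7.59 and 7.67 in collagen, 7.74 and 7.72 in 5% GelMA, and 7.63 and 7.63 in 7.5% GelMA. ANLN hardly varied within a line and was higher in PANC1 by 1.28 ± 0.03 (adjusted p = 3.34e-12), while neither line called it between gels.

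FOXM1 was the exception. It was lower in PANC1 by 0.29 log2 (log2 fold change -0.29 ± 0.03, adjusted p = 5.86e-06), from 6.16 to 6.49 in BXPC3 to 5.90 to 6.22 in PANC1, with overlapping ranges. CCNB2 (-0.06 ± 0.03), ASPM (-0.05 ± 0.06) and DLGAP5 (-0.04 ± 0.03) were not called. The smallest called rises were CCNA2 (0.10 ± 0.04, adjusted p = 0.0447), MKI67 (0.16 ± 0.06, adjusted p = 0.0223) and CDC25B (0.36 ± 0.05, adjusted p = 1.89e-05). CCNA2 was at 5.46 and 5.54 in BXPC3 collagen, 5.58 and 5.80 in 5% GelMA, and 5.71 and 5.74 in 7.5% GelMA, against 5.69 and 5.61, 5.83 and 5.81, and 5.68 and 5.83 in the same PANC1 groups. CCNA2 and MKI67 overlapped between lines. Both calls were lost without any of several libraries (8 for CCNA2, adjusted p up to 0.128, and 5 for MKI67, up to 0.0677).

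**Figure D5:**
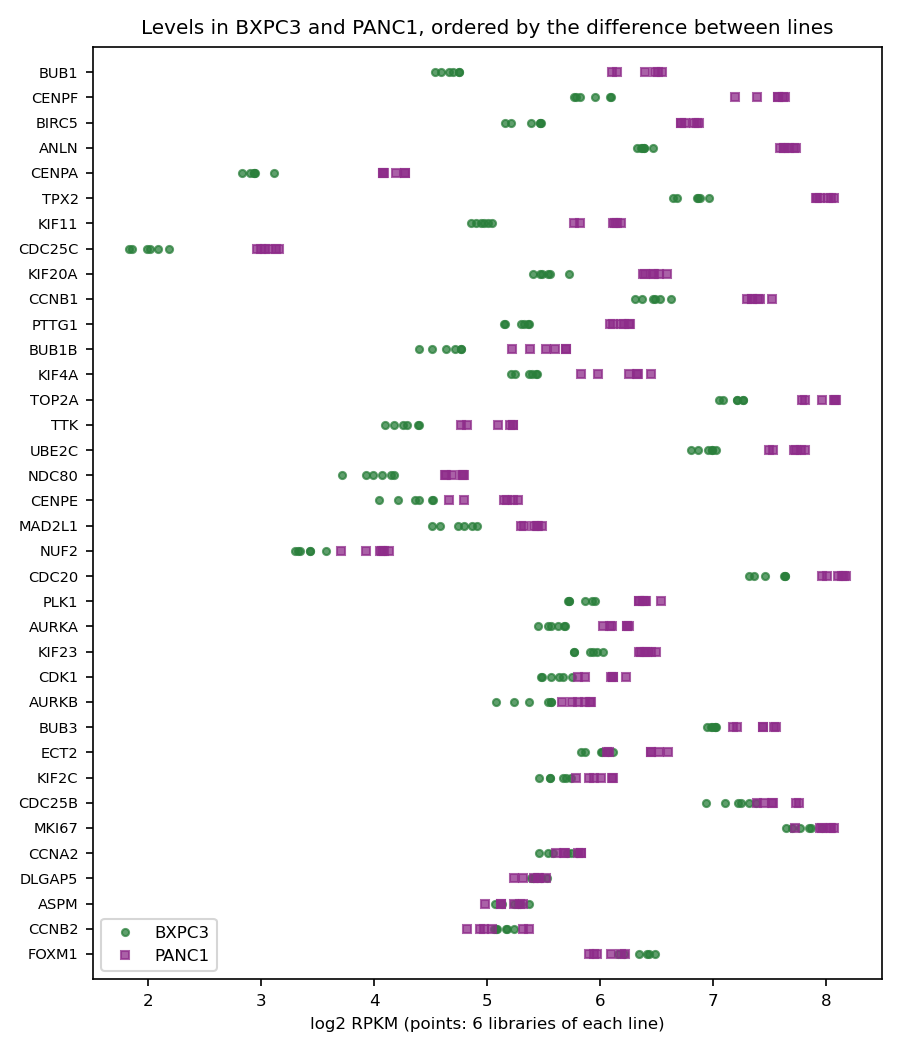
Log2 RPKM of each of the 36 genes in the 6 BXPC3 libraries (circles) and the 6 PANC1 libraries (squares), ordered by the difference between the lines. For 29 genes all PANC1 libraries lie to the right of all BXPC3 libraries, BUB1 shows the widest gap, and FOXM1 at the bottom is the gene that was lower in PANC1.

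The replicates limited the comparison of gels. In BXPC3 5% GelMA the second replicate was above the first for 34 of 36 genes, by a median of 0.14 log2, while over all genes the median difference was 0.00 and 50.2% were higher. The set's median effect of GelMA was 0.15 in each line. Relative to the collagen mean of the line, the set's median was 0.09 in the first and 0.22 in the second 5% replicate of BXPC3, and 0.17 and 0.18 in the 7.5% replicates. In PANC1 it was 0.18 and 0.15 in 5% and 0.05 and 0.16 in 7.5% GelMA. The other 5 groups had median differences between replicates of -0.04 to 0.05.

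Other cell cycle genes were counted from lists of the same kind, beside the all-gene shares of 19.4% higher and 16.7% lower in BXPC3 GelMA and 27.7% higher and 27.4% lower in PANC1 GelMA, and no list was tested against these. Of 48 further mitosis genes, 17 (35.4%) rose and 0 fell in BXPC3 GelMA (median 0.13), led by PIMREG (0.89 ± 0.08, adjusted p = 6.27e-05), and 26 (54.2%) rose and 2 fell in PANC1 (median 0.18), led by KIF18A and CEP55 (each 0.59). Of 35 genes of the G1/S transition and DNA replication, 25 (71.4%) rose and 0 fell in BXPC3 (median 0.22), led by CCNE1 (cyclin E1, 0.50 ± 0.07), and 17 (48.6%) rose and 4 fell in PANC1 (median 0.13), led by CDC25A (0.69 ± 0.05). Of 12 G1 cyclins and CDK inhibitors, a list that also holds the CDK1-inhibiting kinase gene WEE1, 7 rose and 2 fell in BXPC3 and 6 rose and 1 fell in PANC1. WEE1 rose in PANC1 by 1.15 ± 0.06 (adjusted p = 3.42e-07) and CDKN1A, the inhibitor p21, by 0.63 ± 0.06 (adjusted p = 1.71e-05). The WEE1 effect in PANC1 exceeded that in BXPC3 by 1.52 ± 0.09 (adjusted p = 1.95e-06), more than the PANC1 rise itself. CDKN1A was also called higher in BXPC3 5% GelMA against collagen (0.52 ± 0.07, adjusted p = 0.000718). The list was led in BXPC3 GelMA by CCND2 (0.95 ± 0.22, adjusted p = 0.00766) and CDKN1C (0.76 ± 0.16, adjusted p = 0.00489). Of 21 DREAM, MYB and E2F regulators 3 rose and 3 fell in BXPC3 (14.3% each) and 6 (28.6%) rose and 4 (19.0%) fell in PANC1, shares near those of all genes, with E2F2 the largest in both (0.61 ± 0.16 and 0.69 ± 0.16).

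Core subunits and cofactors of the anaphase-promoting complex had shares near those of all genes, apart from a smaller share of fallen genes in BXPC3. In PANC1 6 of 17 (35.3%) rose and 5 (29.4%) fell, led by CDC16 (-0.64 ± 0.06, adjusted p = 8.52e-06). In BXPC3 4 (23.5%) rose and 1 (5.88%) fell. Of 16 condensin and cohesin genes, which fold and hold chromosomes, 3 (18.8%) rose and 0 fell in BXPC3, and 5 (31.2%) rose and 2 (12.5%) fell in PANC1. Between the lines, where 50.0% of all genes tested were called higher in PANC1 and 41.9% lower, 37 of the 48 further mitosis genes (77.1%) were higher and 6 (12.5%) lower, with a median of 0.68. Of the 35 replication genes 12 (34.3%) were higher and 18 (51.4%) lower, with a median of -0.18. The difference between these lists was not tested.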

How the data were processed

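Poly-A RNA-seq libraries were made after RNeasy extraction, per the labels' protocols. HISAT2 2.1.0 and HTSeq were used with GRCh38 (hg38), per the submitters' processing notes. Their roles, the strand setting, the annotation and the log offset were not stated. The authors deposited 1 table of log2 RPKM covering 16299 genes. Sorted values were equal within 0.05 log2 between libraries for 13758 genes above the lowest 2541 ranks, so they were taken as quantile normalized, a step that removes changes shared by most genes. Library depth is unknown, so no counting error is given. Ensembl IDs were paired with symbols by a gene name table (16250) and GENCODE 29 (49).

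Genes at 1 RPKM or more in at least 2 libraries (15794) entered a limma 3.58.1 model (R 4.3.3, eBayes with trend) with 1 mean for each of 6 groups, leaving 6 residual degrees of freedom beside 3.89 from the prior. The Benjamini-Hochberg adjustment ran over all of them, and genes were called at 0.05. Errors after ± are standard errors unless marked SD. The fit was tested on simulated data with noise drawn independently for each gene. That test cannot show how a shift shared by many genes of a library affects the calls. Motifs were matched letter by letter in RefSeq promoter windows (Python 3.11.15). The alternatives were median-centred libraries, log2(RPKM + 1), no filter, no trend, each line alone, a replicate block and leaving out each library. Values in every library are given for MKI67, CDK1, CCNB1 and PLK1, for up to 4 called genes at each end of the GelMA and line comparisons and for all called between concentrations. Library values of other members, and a closer look at the cyclin B pair, were added after values were seen. Other lists are named by up to 2 genes with the largest called change. The members, lists and tests were chosen with earlier results of these data known.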

Additional observations from a re-analysis of the deposited data

Results flagged for a closer look

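The effect of GelMA differed between the lines for 8 genes, as tested by the interaction in limma and given as the PANC1 effect minus the BXPC3 effect (log2). These were 13.9% of the 36 genes higher and 8.33% lower, beside 18.5% and 20.6% of all genes tested. It was positive for KIF11 (0.32), KIF4A (0.26), BUB3 (0.25), ECT2 (0.23) and BUB1 (0.20), and negative for BIRC5 (-0.36), CCNB2 (-0.30) and MAD2L1 (-0.25). The step from 5% to 7.5% GelMA differed for CDC25B (-0.49) and UBE2C (-0.37). No cause was tested.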

How the results depend on the processing

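Depth is unknown, and 2 libraries a group limit the precision. Leaving out a library of a line leaves 1 in its group. Fewer of all genes tested were then called in GelMA against collagen of that line, so fewer calls are not confined to the set. In some of these fits, though, the set lost a larger share of its higher calls than all genes did. Median centring, log2(RPKM + 1) and no filter ended no call of a gene of the set in the GelMA, concentration or line comparisons. Without the trend 14 calls were lost: AURKA and CCNA2 in BXPC3 GelMA, AURKA, AURKB, CDC25B, CENPF and KIF2C in PANC1 GelMA, BUB3 and TOP2A in PANC1 7.5% against 5%, BUB1 in the line difference, CDC25B and UBE2C in that of concentration, and CCNA2 and MKI67 between lines (adjusted p 0.0504 to 0.107). Then PANC1 7.5% against 5% GelMA had 0 higher and 1 lower and the line difference in concentration 0 lower. With each line fitted alone, 4 calls were lost in BXPC3 GelMA (AURKA, BUB1, CCNA2, TTK; adjusted p up to 0.071), and lower calls were 2 in PANC1 GelMA and 4 in PANC1 7.5% against 5%. MKI67 in BXPC3 GelMA, not called, turned to 0.03 without the second collagen replicate, 0.04 without the first 5% replicate and 0.06 without the second 7.5% replicate, within a range of -0.08 to 0.06. Deviations of same-numbered libraries correlated at -0.05 to 0.08 across genes, so no strong deviation shared by many genes followed the replicate number. Whether same-numbered libraries were cultured or prepared together cannot be read from this. The replicate block ended 3 calls, AURKB in PANC1 GelMA (adjusted p = 0.0718), BUB1 in the line difference (0.0523) and BUB3 in PANC1 7.5% against 5% (0.0725). With the replicate block, lower calls were 2 in PANC1 GelMA and higher calls 0 in PANC1 7.5% against 5% GelMA.

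When each library was left out in turn, higher calls in GelMA ranged from 10 to 20 in BXPC3 and from 9 to 20 in PANC1, and lower calls from 0 to 1 and from 1 to 2. For 5% against collagen the ranges were 5 to 18 higher and 0 to 1 lower in BXPC3 and 9 to 19 higher in PANC1. For 7.5% they were 6 to 17 higher in BXPC3, and 9 to 15 higher and 2 to 4 lower in PANC1. For 7.5% against 5% they were 0 to 1 higher in BXPC3, and 0 to 1 higher and 0 to 5 lower in PANC1. The line difference ranged from 3 to 10 higher and 3 to 9 lower, that in concentration from 0 to 3 lower, and PANC1 against BXPC3 from 30 to 32 higher. Of the genes called, 8 of 18 in BXPC3, 10 of 18 in PANC1 and 31 of 33 between lines were called in all of these fits.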
